A study of Lobaria pulmonaria with 11 samples.

Results

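In the fungal partner of the lungwort lichen Lobaria pulmonaria, 119 transcripts stood highest after 2 days of ultraviolet-B (UV-B) exposure and were lower again at days 7 and 11. They are 119 of 12089 transcripts that passed the expression filter (0.984%), out of 15607 listed. They were chosen by their level in CPM, counts scaled to a common library size with trimmed-mean (TMM) factors. In each of them the lowest of the 3 day 2 libraries was at least 1.3 times the highest of the 8 other libraries, and the mean day 2 level was at least 3 CPM. The 100 transcripts most abundant at day 0 and those raised at least 2 times in every irradiated library had been left out first. Of 132 transcripts that met the day 2 criterion, 13 were left out, 12 as raised throughout and 2 as among the most abundant, with 1 in both classes. Because these levels chose the members, the height at day 2 is a description and carries no test.

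In a lichen, a fungus (the mycobiont) builds the thallus around cells that photosynthesise, which in the lungwort are a green alga (the photobiont) and a cyanobacterium. The thalli were wild material that had been dried and frozen, then rewetted, kept hydrated in a climate chamber and, in the irradiated groups, given 3 W/m2 of UV-B for 80 min a day at room temperature. Polyadenylated RNA was sequenced from untreated thalli at day 0 (0 kJ/m2, 3 libraries) and from irradiated thalli at day 2 (28.8 kJ/m2, 3 libraries), at day 7 (100.8 kJ/m2, 2 libraries) and at day 11 (158.4 kJ/m2, 3 libraries). Day 0 held the only thalli without UV-B, so dose and time spent wet cannot be told apart. The study's design text calls the replicates biological, and the labels do not say which thalli they came from, nor whether libraries of different days share a thallus.

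UV-B is absorbed by DNA and forms pyrimidine dimers, which fungi remove with light-driven photolyases and by excision repair, and it also gives rise to reactive oxygen species. Fungal stress responses commonly include transcripts that rise soon after the onset of a stress and later decline while it goes on. Lungwort thalli are known to darken with melanin-like pigments of the upper cortex under UV-B. The count tables identify transcripts by number alone, with no gene name or function beside it, so none of these processes could be assigned to a member.

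The libraries held 8680745 to 17626099 mycobiont counts. The TMM factor was 1.16 to 1.27 at day 0, 0.871 to 0.982 at day 2, 0.947 to 1.01 at day 7 and 0.864 to 0.946 at day 11, so levels relative to day 0 depend on this scaling. Reads mapped to neither eukaryotic genome made up 10.9% to 14.0% at day 0, 9.29% to 11.6% at day 2, 10.5% to 10.6% at day 7 and 11.7% to 16.3% at day 11. The photobiont held 8.34% to 15.9%, 8.93% to 13.2%, 11.6% to 11.9% and 9.76% to 11.6% of the counts of both partners on these days in turn. Their part in the results below was not tested. In these bulk libraries, fewer fungal cells with a transcript and less of it per cell cannot be told apart.

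Together the 119 transcripts took up a larger share of the mycobiont counts in each day 2 library than in any other library. Day 0 had a mean share of 1.11% ± 0.0482 (SD, n = 3). Day 2 had 2.99% ± 0.164 (SD, n = 3), day 7 had 1.02% ± 0.00554 (SD, n = 2) and day 11 had 1.00% ± 0.109 (SD, n = 3). This share uses raw counts without the TMM factors. On the TMM scale the members summed to 9041 ± 741 CPM at day 0, 32640 ± 1910 CPM at day 2, 10481 ± 404 CPM at day 7 and 11138 ± 1135 CPM at day 11.

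**Figure D1:**
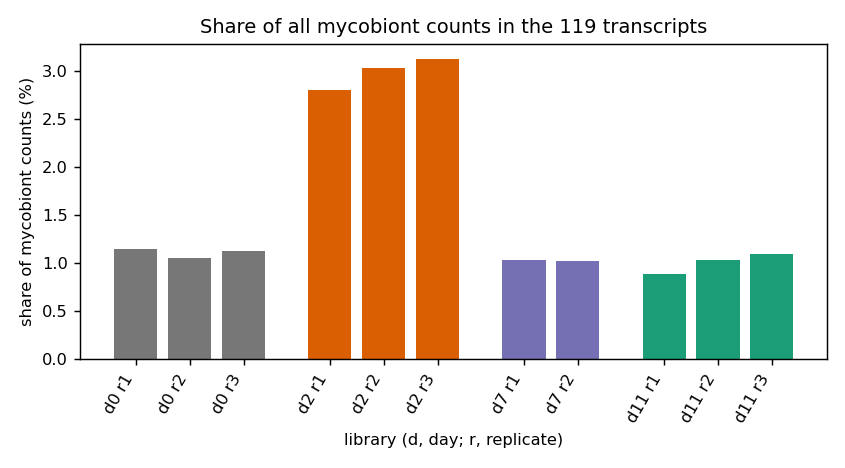
Share of all raw mycobiont counts (%, y axis) that fell on the 119 transcripts in each of the 11 libraries (x axis; 1 bar per library, coloured by day). The 3 day 2 bars, with a mean of 2.99%, stand above all others, whose day means are 1.11%, 1.02% and 1.00%.

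Members spanned a wide range of levels. The mean day 2 level had a median of 156 CPM (quartiles 44.5 and 326 CPM), with 7 members at 1000 CPM or more and 9 under 10 CPM. The mean day 0 level had a median of 50.9 CPM, a value that the rule's minimum level at day 2 helps to set. When all tested transcripts were divided by day 0 level into 4 groups of equal size, the members fell into each of them, with 46 in the top group, 26 and 29 in the middle groups and 18 in the bottom group.

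The height of the peak was modest for most members. The mean day 2 level was at least 2 times that of day 0 in 95 members, at least 4 times in 41 and at least 10 times in 8. The median ratio of the means was 2.73 for day 2 over day 0, 2.80 for day 2 over day 7 and 2.72 for day 2 over day 11. In the fit over all transcripts the median log2 fold change of the members was 1.45 for day 2 against day 0, -1.48 for day 7 against day 2 and -1.44 for day 11 against day 2. Over all 12089 transcripts the same medians were -0.03, -0.01 and -0.01.

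The gap that set the members apart was narrow in many of them. The lowest day 2 library exceeded the highest of the other 8 by a median of 1.497 times (quartiles 1.37 and 1.77), by less than 1.5 times in 60 members and by at least 2 times in 15. Just inside the limit, transcripts 1235423 and 689978 had ratios of 1.301 and 1.305. Just outside it, transcripts 487358 and 1202762 had ratios of 1.298 and 1.295 and met every other criterion. Transcript 1202762 stood at 203 to 287 CPM at day 0, 457 to 462 CPM at day 2, 245 to 312 CPM at day 7 and 271 to 353 CPM at day 11. Its day 2 libraries lay above all others, but by less than the limit asks.

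**Figure D2:**
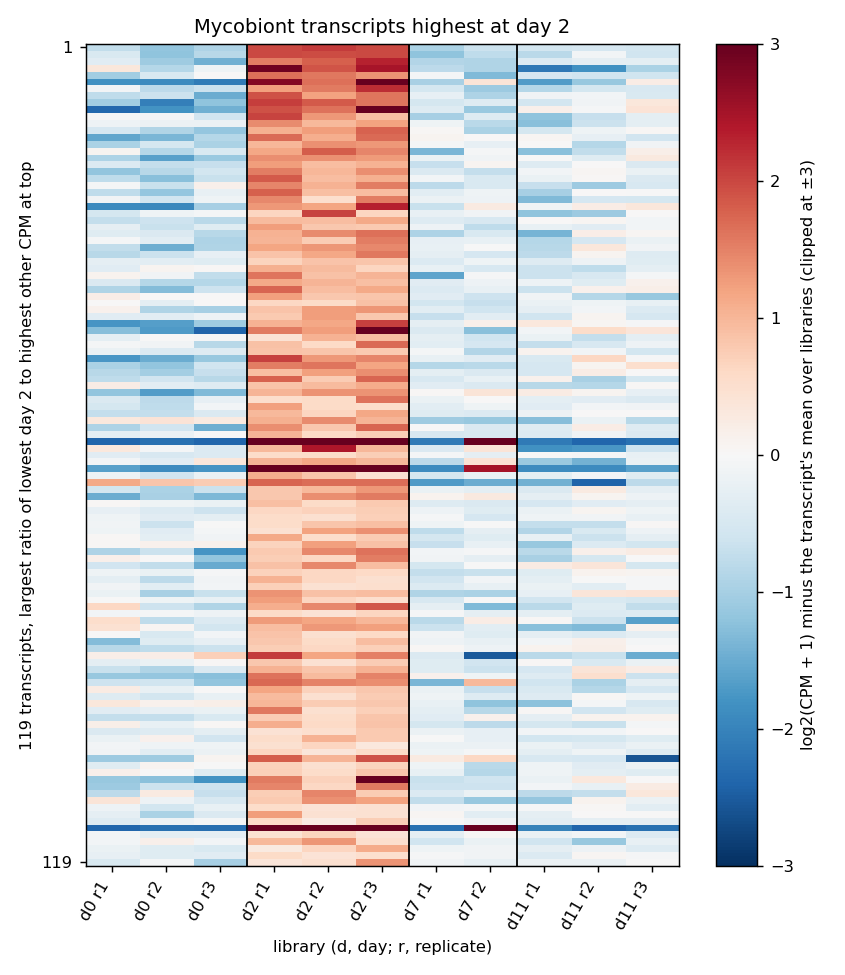
Level of the 119 transcripts (rows, ordered by the ratio of the lowest day 2 to the highest other CPM) in the 11 libraries (columns, black lines between days). Colour gives log2(CPM + 1) minus the transcript's mean over all libraries; the 3 day 2 columns are red in every row, and 3 rows are also deep red in day 7 replicate 2.

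Transcript 1163680 had the widest gap, with a ratio of 5.89. Its level was 14.5, 10.4 and 12.7 CPM in the day 0 libraries, 102, 110 and 102 CPM at day 2, 12.5 and 15.8 CPM at day 7 and 16.6, 17.2 and 16.9 CPM at day 11. The day 2 libraries lay close together, far above all others, and the 3 day 11 libraries lay just above the 3 of day 0. At day 11 the log2 fold change against day 0 was 0.43 (SE 0.17), which was not called (edgeR adjusted p = 0.0761) and was -0.01 with library totals in place of TMM.

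Transcript 1077410 had both the highest mean day 2 level and the second widest gap, with a ratio of 4.11. It stood at 457, 269 and 351 CPM at day 0, at 2474, 2435 and 2475 CPM at day 2, at 269 and 367 CPM at day 7 and at 356, 592 and 413 CPM at day 11. The 3 day 2 libraries were nearly identical (2461 ± 22.9 CPM, SD, n = 3), while days 0, 7 and 11 overlapped one another. Its log2 fold change at day 11 against day 0 was 0.34 (SE 0.26, adjusted p = 0.355), and -0.11 with library totals.

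Transcript 1267236 was the second most abundant member at day 2, and 1 library set its mean. It had 686, 526 and 413 CPM at day 0, 1089, 2961 and 1096 CPM at day 2, 404 and 725 CPM at day 7 and 155, 163 and 358 CPM at day 11. Day 2 replicate 2 was far above the other day 2 libraries, and every day 11 library was below every day 0 library. The log2 fold change at day 11 against day 0 was -1.26 (SE 0.49) and not called (adjusted p = 0.0773, range 0.0285 to 0.205 over 19 alternatives).

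Replicates of day 2 were of like height for most members. In 67 of the 119 the 3 day 2 libraries lay within 1.5 times of one another, and in 15 they lay more than 2 times apart. Day 2 replicate 1 was the highest of the 3 in 51 members, replicate 2 in 21 and replicate 3 in 47. Among the 15 with the widest spread, replicate 3 was the highest in 9. The median coefficient of variation at day 2 was 18.9% in the members and 21.5% in the 9755 tested transcripts with a mean day 2 level of 3 CPM or more. The rule used the lowest day 2 library, so this spread is not independent of it.

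Among the other days no single one was lowest throughout. Day 0 had the lowest mean in 57 members, day 7 in 31 and day 11 in 31. The highest of the 8 other libraries belonged to day 0 in 39 members, to day 7 in 24 and to day 11 in 56. Day 7 has 2 of these 8 libraries, and days 0 and 11 have 3 each. The same counts were not taken over all tested transcripts, so this order is not shown to be particular to the members.

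**Figure D3:**
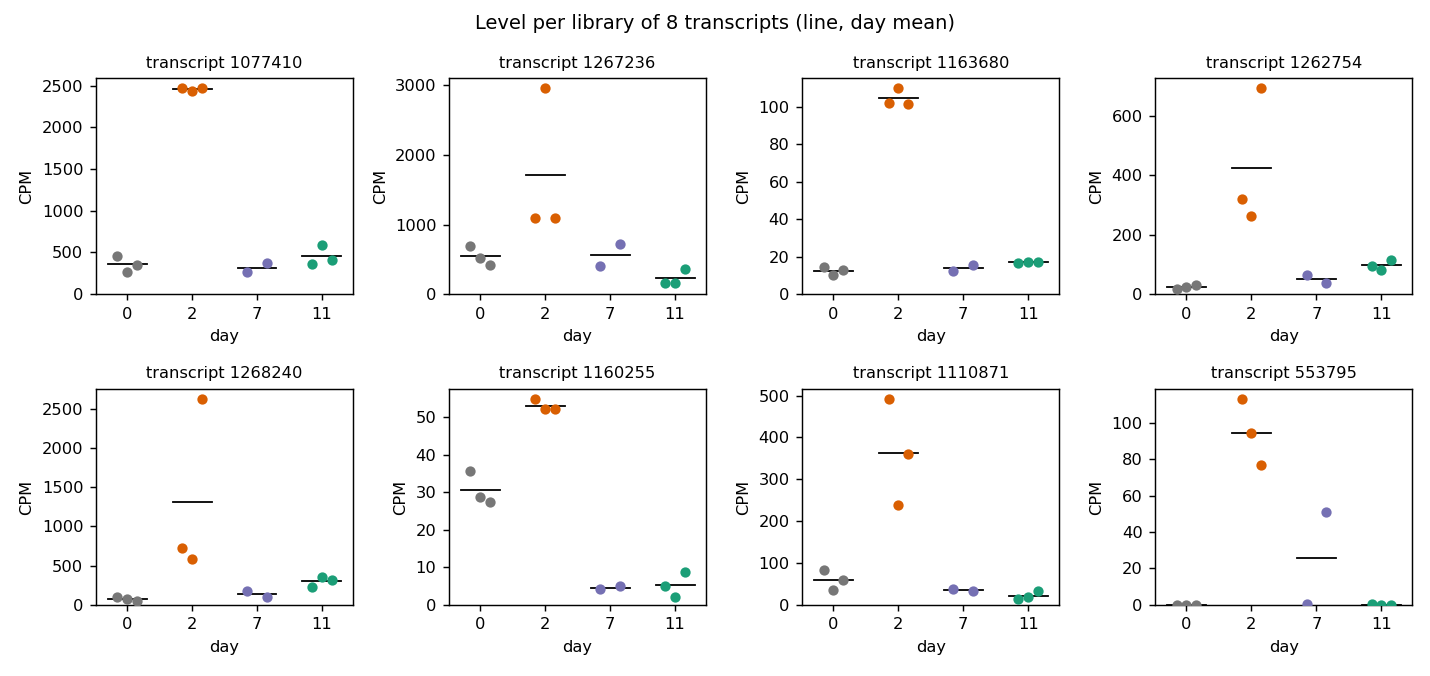
CPM (y axis, linear, from 0) by day (x axis) of the 7 named transcripts and of transcript 553795, with 1 point per library and a line at the day mean. The 3 day 2 points of each panel lie above all other points, from 52.2 to 54.8 CPM in transcript 1160255 to 2435 to 2475 CPM in transcript 1077410.

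By day 7 most of the day 2 height had gone. The part of the rise that was left was expressed as the mean of the later day minus that of day 0, divided by the mean of day 2 minus that of day 0. At day 7 it was a median of 3.62% (quartiles -10.4% and 14.7%), and at day 11 3.69% (quartiles -13.3% and 18.8%). At or below the day 0 mean were 50 members at day 7 and 53 at day 11. Between 0 and 25% was left in 59 and 51 members and between 25% and 50% in 10 and 15, on the 2 days in turn. No member kept more than 50%, which the rule itself partly fixed. It caps each later library below the lowest day 2 library, and it left out the 12 candidates raised throughout, one of which, transcript 1271252, kept 50.4% at day 7.

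The 2 later days placed most members alike. At or below the day 0 mean on both days were 41 members, and 39 kept between 0 and 25% on both. Both measures share the day 0 and day 2 libraries, so their likeness is no independent evidence.

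**Figure D4:**
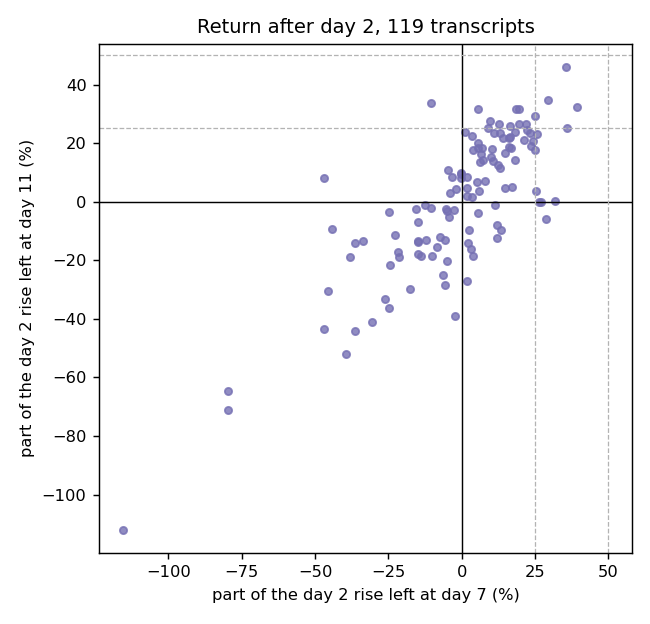
Part of the day 2 rise left at day 7 (x axis, %) and at day 11 (y axis, %) for each of the 119 transcripts; 0 is the day 0 mean and dashed lines mark 25% and 50%. Points spread from -115% and -112% to 39.4% at day 7 and 45.9% at day 11, with none beyond 50%.

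Days 7 and 11 were each compared with day 0 in the edgeR quasi-likelihood fit over all 12089 transcripts, a call being a Benjamini-Hochberg adjusted p under 0.05. The rule used these levels, since it left out candidates at least 2 times above day 0 in every irradiated library. Of the 12 candidates left out for this, 11 were called higher at day 7 and 12 at day 11. The rule also capped every library of days 0, 7 and 11 below the lowest day 2 library, so a high day 0 library kept a transcript out. The counts of higher and of lower members are therefore partly fixed by the selection. They are given as a description beside the share of all transcripts called. The 2 comparisons share their day 0 libraries.

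At day 11, 25 of the 119 members (21.0%) were higher than at day 0 and 5 (4.2%) were lower. Of all tested transcripts, 15.2% were higher and 13.8% lower by the same call. With the omitted candidates put back, 37 of 132 (28.0%) were higher and 6 (4.55%) lower. The 25 had log2 fold changes of 0.58 to 2.04 (median 0.97, adjusted p 0.00150 to 0.0483), 12 of them at least 2-fold, and kept 17.5% to 45.9% of the day 2 rise. The median log2 fold change over all 119 was 0.19, against -0.02 over all tested transcripts. In the top of the 4 groups by day 0 level, which held 46 members, the median over all its transcripts was 0.19. Of that group 22.8% were called higher and 11.9% lower. Its 46 members held 12 of the 25 called higher and 2 of the 5 called lower. The other members lay in groups of lower day 0 level, so the share over all 119 is not directly comparable with that of the top group. The part of the day 0 level in these shares was not tested. Every day 11 library lay above every day 0 library in 33 members (27.7%, against 24.2% of all tested transcripts and 36.5% of the top group). In 15 members (12.6%, against 24.2% and 17.6%) every day 11 library lay below every day 0 library. The split turned with the scaling: with library totals, which shifted the median of all transcripts to -0.47, 10 members (8.40%) were called higher and 28 (23.5%) lower, against 5.99% and 29.2% of all transcripts. Leaving out day 0 replicate 1, 2 or 3 left 15, 10 or 16 higher members (12.6%, 8.40% and 13.4%), against 11.0%, 9.52% and 9.59% of all transcripts. Leaving out day 11 replicate 2 or 3 left 14 (11.8%), against 11.9% and 11.8% of all. In each of these settings the calls over all transcripts also fell below those with all libraries. Lower members numbered 2 without day 0 replicate 1 or 3 (1.68% each, against 11.3% and 9.71% of all transcripts). Without day 11 replicate 1 they numbered 3 (2.52%, against 8.7% of all).

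Transcript 1262754 had the largest rise of day 11 over day 0 among the members. It stood at 15.8, 23.8 and 30.5 CPM at day 0, at 319, 263 and 692 CPM at day 2, at 64.0 and 38.7 CPM at day 7 and at 93.4, 82.2 and 113 CPM at day 11. Each later library was above each day 0 library, while all stayed far below day 2. The log2 fold change was 2.04 at day 11 (SE 0.40, adjusted p = 0.00593, range 5.73e-06 to 0.0238 over 19 alternatives) and 1.14 at day 7 (SE 0.42, adjusted p = 0.0891).

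Transcript 1268240 showed a like course with a wider day 2 spread. It had 99.6, 73.7 and 45.6 CPM at day 0, 720, 586 and 2623 CPM at day 2, 180 and 101 CPM at day 7 and 231, 354 and 313 CPM at day 11. Day 2 replicate 3 was over 3 times each of the other 2, and the 3 day 11 libraries all lay above the 3 of day 0. The log2 fold change at day 11 was 2.04 (SE 0.57, adjusted p = 0.0254). The call was lost without day 0 replicate 2 (adjusted p = 0.0750) or 3 (0.0904) and without day 11 replicate 2 (0.0630) or 3 (0.0547).

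Transcript 1160255 had the largest fall below day 0 among the members. It had 35.6, 28.7 and 27.4 CPM at day 0, 54.8, 52.2 and 52.2 CPM at day 2, 4.09 and 4.98 CPM at day 7 and 5.11, 2.14 and 8.65 CPM at day 11. The 5 libraries of days 7 and 11 were all far below the 3 of day 0. Its log2 fold change was -2.51 at day 11 (SE 0.40, adjusted p = 0.00256, range 1.99e-09 to 0.0127 over 19 alternatives) and -2.75 at day 7 (SE 0.47, adjusted p = 0.00626).

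Transcript 1110871 combined a tall day 2 peak with a later fall. Its level was 82.1, 34.8 and 58.6 CPM at day 0, 492, 239 and 361 CPM at day 2, 37.0 and 34.1 CPM at day 7 and 13.7, 17.5 and 32.6 CPM at day 11. The 3 day 11 libraries lay below the lowest of day 0, by a small margin in replicate 3. The log2 fold change at day 11 was -1.46 (SE 0.41, adjusted p = 0.0251). The call was lost without day 0 replicate 1 (adjusted p = 0.0736) or 3 (0.0546) and without day 11 replicate 1 (0.0821) or 2 (0.0777).

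**Figure D5:**
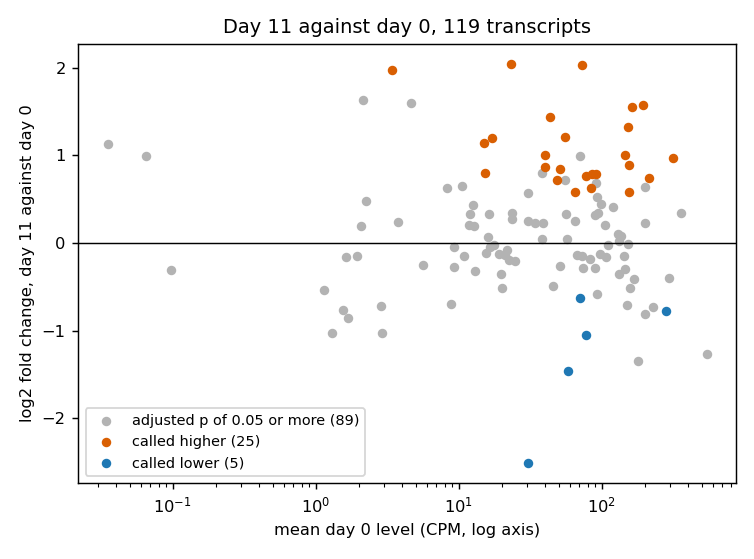
Log2 fold change of day 11 against day 0 (y axis) by mean day 0 level (x axis, CPM, log scale) for the 119 transcripts, coloured by the edgeR call. Called higher are 25 members, between 0.58 and 2.04, and called lower 5, of which 1160255 at -2.51 lies farthest from 0.

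At day 7, 12 members (10.1%) were called higher and 3 (2.52%) lower than at day 0, against 9.65% and 7.86% of all tested transcripts. With the omitted candidates put back, 23 of 132 (17.4%) were higher. Members had a median log2 fold change of 0.11, and all tested transcripts one of -0.02. In the top group by day 0 level the median over all its transcripts was 0.15, with 13.3% called higher and 8.87% lower. Of the 12, 9 were also called higher at day 11, and of the 3, 2 were also called lower. Leaving out day 0 replicate 1 or 2 left 7 or 4 higher members (5.88% and 3.36%, against 6.38% and 4.99% of all transcripts). Leaving out day 7 replicate 1 or 2 left 7 or 3 (5.88% and 2.52%, against 5.32% and 3.17% of all). Leaving out day 7 replicate 2 together with day 2 replicate 2 left 1 (0.840%, against 2.47% of all). With day 7 replicate 2 or that pair left out, 1 day 7 library remained. The members' median log2 fold change was then 0.11 and 0.09 in turn, against -0.05 and -0.07 over all transcripts. With library totals 6 (5.04%) were called higher and 10 (8.40%) lower, against 4.43% and 14.0% of all transcripts, whose median was -0.35.

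In 3 of these 12 the call rests on 1 of the 2 day 7 libraries. Transcripts 553795, 1294991 and 1102708 were singled out after their values were seen, as the members whose day 7 libraries lay more than 10 times apart after adding 0.1 CPM. Transcript 553795 had 0, 2 and 0 counts at day 0, 1075, 1632 and 878 counts at day 2, 2 and 492 counts at day 7 and 2, 0 and 1 counts at day 11. Transcript 1294991 had 0, 2 and 1 counts at day 0, 907, 1274 and 1111 counts at day 2, 1 and 543 counts at day 7 and 3, 0 and 1 counts at day 11. Transcript 1102708 had 3, 0 and 1 counts at day 0, 281, 801 and 431 counts at day 2, 0 and 193 counts at day 7 and 0, 0 and 2 counts at day 11. All 3 were abundant in the same 4 libraries and at 3 counts or fewer in the other 7. These 4 were the 3 day 2 libraries and day 7 replicate 2, so only at day 7 did libraries of the same day differ in this way. Over all tested transcripts, the deviations of day 2 replicate 2 and day 7 replicate 2 from their day means were correlated at 0.386, the highest of the 15 same-numbered pairs. Among all tested transcripts, 6 had the lowest of these 4 libraries at least 10 times above the highest of the other 7 (with 0.1 CPM added), 3 of them members. Transcripts present in some thalli and absent from others cannot be told apart here from transcripts switched on by the exposure. Without these 3, 9 of the other 116 members were called higher at day 7, against 9.65% of all tested transcripts. The log2 fold changes of these 9 were 0.69 to 1.67. Over the 116, the ratio of the day 2 mean to the day 0 mean ran from 1.53 to 61.7.

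Days 7 and 11 were not told apart by the test. No member was called between day 11 and day 7, as was true of all 12089 transcripts (0%). At an unadjusted p under 0.05 there were 9 members (7.56%), 4 higher and 5 lower at day 11, against 5.15% of all transcripts. DESeq2 called 4 members (2 higher and 2 lower), and 0.615% of the 11538 transcripts it tested. Of the members, transcripts 553795, 1294991 and 1102708 fell most from day 7 to day 11, with log2 fold changes of -7.76, -7.52 and -6.92. Their day 7 level came almost wholly from replicate 2, so these falls rest on 1 library. The median log2 fold change of day 11 against day 7 was 0.07 in the members, and a call that misses the threshold does not show that the days were alike.

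The same criterion was also applied to the other days with 3 libraries and to the alga. Without the omissions, 132 mycobiont transcripts had all 3 day 2 libraries at least 1.3 times above the other 8, against 26 with the day 11 libraries and 319 with the day 0 libraries in that place. In the green-algal photobiont of the same thalli, 18 of 9862 tested transcripts (0.183%) met the full day 2 rule. Without the third photobiont library of day 0 and the first of day 2, an alternative chosen with results known, 43 of 9797 met the rule. Fewer libraries loosen the rule by themselves: without day 2 replicate 1 alone, 192 mycobiont transcripts met it in place of 119. Photobiont libraries held 938418 to 2677845 counts, and the difference between partners was not tested.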

How the data were processed

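Per the labels, libraries were stranded, from polyadenylated RNA of Lobaria pulmonaria thalli. The authors deposited a table of raw counts by transcript for the fungus, another for the alga, and a table of read numbers. Per the submitters' processing notes, the tools were HISAT2, HTSeq 0.5.4, Trimmomatic 0.39, edgeR and FastQC 0.11.8. The sources used here give no genome build, gene models or strand setting for the counting, so overlapping or near-identical transcripts remain uncertain.

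Levels and tests were computed from these counts in R 4.3.3 with edgeR 4.0.16: the default filter by day, TMM factors, and a robust quasi-likelihood fit over all 11 libraries and 12089 mycobiont transcripts. Adjusted p-values cover all tested transcripts. The standard error is the absolute log2 fold change divided by the square root of F. DESeq2 1.42.0 was an alternative. The procedure was tested on simulated data. The members and lists were chosen with earlier results of these data known. Named are the 2 members with the highest day 2 mean, the 2 with the largest ratio, the 2 called members with the largest rise and the 2 with the largest fall at day 11, and the 2 nearest the limit on either side.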

Additional observations from a re-analysis of the deposited data

How the results depend on the processing

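The number of members depended on the rule and the scaling. It was 78 with library totals, of which 69 were among the 119, 59 with a ratio of at least 1.5, and 480 with a ratio of at least 1. It ran from 120 to 224 when 1 library was left out, with 192 and 224 without day 2 replicates 1 and 2, since fewer libraries loosen the rule. It was 228 without both day 2 replicate 2 and day 7 replicate 2, a pair chosen after seeing the data. RLE factors, no filter, other minimum levels and no omission gave 110 to 132.

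With the members held fixed, library totals gave medians of -0.2248 at day 7 and -0.2587 at day 11 against day 0, with 6 and 10 members called higher and 10 and 28 lower. The signs of transcripts 1077410 (-0.1053) and 1163680 (-0.008913) turned. The day 7 median was 0.05167 with the stricter filter of 1 CPM in 5 libraries, and 0.04629 when the fit held the 2 days alone. Each of these 2 medians covers only the 116 members that passed its filter, so it is not over the same set as the others. DESeq2 called 5 members lower at day 7 (4.2%, against 12% of all transcripts) and 4 between day 11 and day 7 (against 0.615% of all). Without both libraries of the pair, which leaves 1 day 7 library, the day 7 median of the members was 0.09295. Leaving out 1 library of day 0, 2 or 11 gave 4 to 12 members higher at day 7 (3.36% to 10.1%, against 4.99% to 10.8% of all transcripts). Lower at day 7 were 2 to 3 (1.68% to 2.52%, against 4.58% to 8.81%). At day 11, 10 to 23 were higher (8.4% to 19.3%, against 9.52% to 16.5%) and 2 to 7 lower (1.68% to 5.88%, against 8.7% to 14.3%). In these fits no member was called between day 11 and day 7, against at most 0.0166% of all transcripts in either direction. Leaving out any 1 of the 11 libraries gave medians of 0.03671 to 0.1446 at day 7 and 0.06218 to 0.1992 at day 11. Where 1 day 7 library is left, it is assumed to vary like the other groups.

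Replicate numbers were not taken as pairing the libraries. Correlations are given for same-numbered pairs alone, so they cannot decide whether the numbers pair the libraries. In 4 of 15 such pairs the deviations were correlated above 0.1. Of these 4, 3 hold day 2 replicate 2, which correlated at 0.386 with day 7 replicate 2, 0.198 with day 0 replicate 2 and 0.131 with day 11 replicate 2. The labels do not say whether these libraries share a thallus. With a replicate block 8 members were higher and 2 lower at day 7 (6.72% and 1.68%, against 6% and 4.9% of all transcripts). The members' median at day 7 was then 0.1413. At day 11, 19 were higher and 5 lower (16% and 4.2%, against 12.1% and 11% of all). The differences of 2 libraries at day 7 are the least precise.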

Other observations

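Among the 132 transcripts that met the day 2 criterion, 12 were left out as raised in every irradiated library. The day 2 criterion fixed their peak at day 2, and the omission fixed that their later libraries stood above day 0. The most abundant of them, transcript 1261034, was named after its values were seen and was also among the 100 most abundant at day 0. It had 728, 575 and 861 CPM at day 0, 4955, 4462 and 6358 CPM at day 2, 1958 and 1919 CPM at day 7 and 1890, 1937 and 1742 CPM at day 11. All later libraries lay between day 0 and day 2. It kept 26.8% of the day 2 rise at day 7 and 25.02% at day 11.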
